A study of Rattus norvegicus with 6 samples.

Results

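The complement system of the retina was examined through 9 genes, C1qa, C1qb, C1qc, C2, C3, C4a, Cfb, Cfi and Serping1, taken by symbol from the 34335 genes of the count table. They cover the chains of C1q, components of the classical and alternative pathways, and regulators, and were proposed with earlier results of these data in view. Retinas of wild-type (WT) BN rats, a pigmented inbred strain, were compared after an injection of 2 µL into the vitreous. The DMP group received the cationic micelle DMP at 10 mg/mL in water and the saline group received saline, so that micelle and vehicle cannot be told apart. Each group had 3 libraries, numbered 30, 31 and 33, with totals of 47842234 to 53255925 counts. The sources used here do not give the animals' age or sex, the time of collection, whether an eye had also been injured by laser, or whether libraries came from separate animals. P-values thus measure the spread between these libraries, which may be technical.

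Complement is a cascade of proteins that tags cells, debris and microbes. C1q binds its target and sets off the classical pathway through C1r, C1s, C4 and C2, and the alternative pathway amplifies the deposition of C3 through factor B (Cfb), while C1 inhibitor (Serping1) and factor I (Cfi) hold the cascade back. In mouse and human nervous tissue C1q is made mainly by microglia, the resident macrophages, and in the developing mouse visual system C1q and C3 tag synapses for removal.

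After DMP, transcripts of the C1q chains, of C2, C4a and C3 were 1.62-fold to 1.89-fold as abundant as after saline in the fitted model, and for each of these 6 genes all DMP libraries lay above all saline libraries. The counts of C1 inhibitor were 1.40-fold in the fit with overlapping groups, those of factor B 0.969-fold, and factor I was barely detected. None passed the threshold over all genes. In the quasi-likelihood test of edgeR, 0 of the 8 members tested had a Benjamini-Hochberg adjusted p under 0.05, where 0.0215% of the 18571 genes tested did. At an unadjusted p under 0.05, 7 of the 8 were higher in DMP, where 2.08% of all genes were, and 0 were lower, where 2.56% of all genes were. For 6 of the 8, all DMP libraries lay above all saline libraries, as for 4.42% of all genes, and 7 had a log2 fold change above 0, as did 50% of all genes. The median log2 fold change was 0.73 over the 8 members and 0.00 over all genes. DESeq2 called C1qb, C1qc, C2 and C4a, as 4 of the 90 genes it called, and limma-voom called 0 members at an adjusted p under 0.05 and 7 at an unadjusted one. Levels within a gene are in CPM, its count relative to the effective size of the library. In bulk tissue, a change in the number of cells of a type and a change in RNA per cell cannot be told apart.

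**Figure D1:**
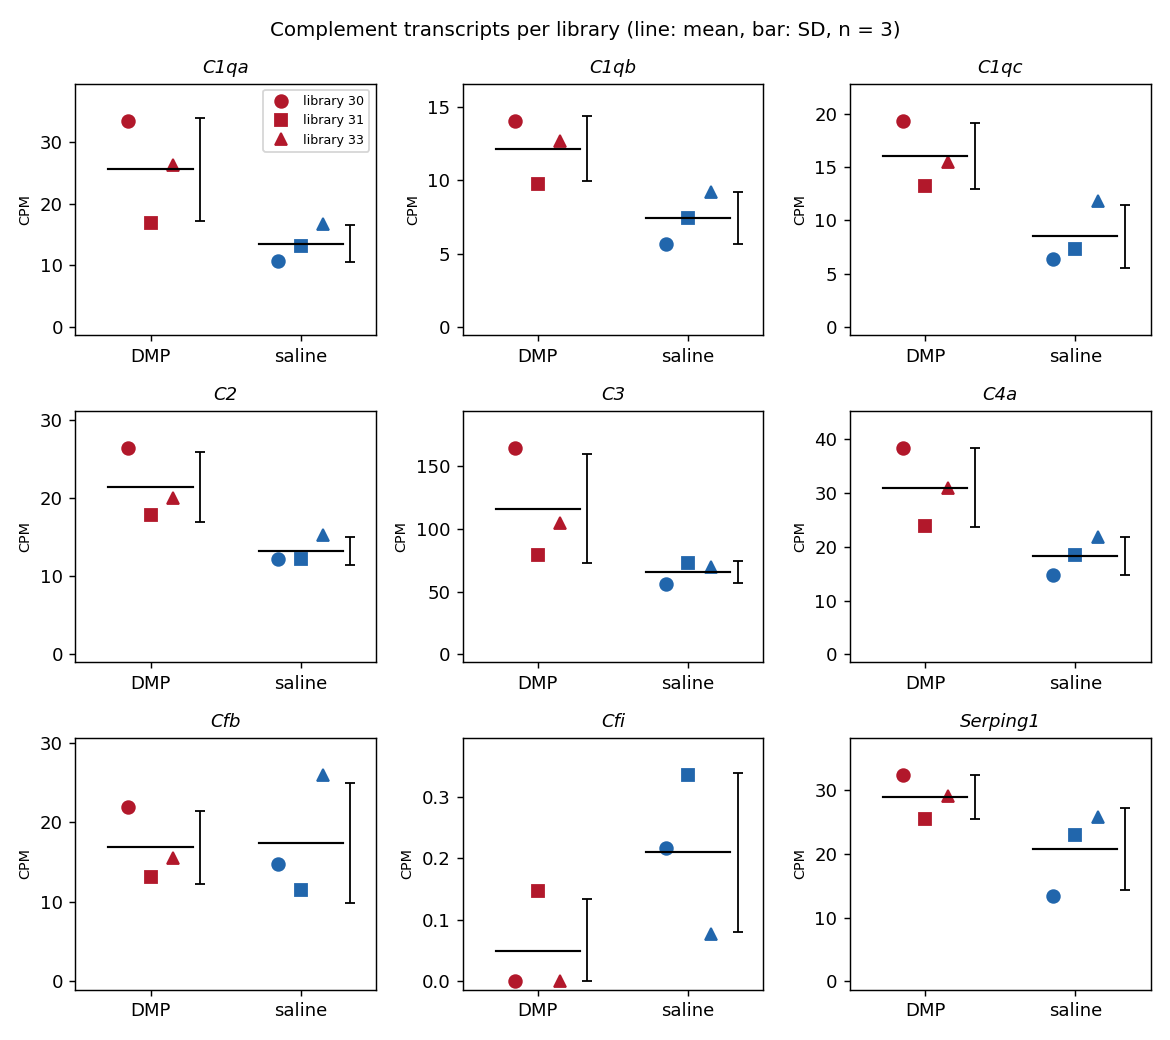
CPM (linear axes from 0) of the 9 complement genes in each DMP library (red, left) and saline library (blue, right), with circles, squares and triangles for libraries 30, 31 and 33, lines for means and bars for SD (n = 3 per group, cut at 0 for Cfi). C1qa, C1qb, C1qc, C2, C3 and C4a were above every saline library in every DMP library, while Cfb, Cfi and Serping1 overlapped.

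The upstream sequences of members whose libraries fell in a like order are shown, since their genes lie on different chromosomes, together with C4b, the near copy of C4a. Of the 9 members, 5 matched the RefSeq table of promoter windows (assembly GRCr8). Those of C1qa, C1qb, C3 and C4a are shown, and that of Cfi was neither shown nor searched. C1qc, C2, Cfb and Serping1 had no window. Each window ends at the base before the start of the RefSeq gene and runs 5′ to 3′ on the gene's strand for 250 bases, or 199 bases for C4a. Capitals mark matches to any of the motifs searched on both strands, which were the interferon element ISRE (GAAANNGAAA), the core GAGGAA of the myeloid factor PU.1, the C/EBP form TTGCNNAA, and the NF-kB site by its name.
C1qa (chr5:154419934-154420183, minus strand): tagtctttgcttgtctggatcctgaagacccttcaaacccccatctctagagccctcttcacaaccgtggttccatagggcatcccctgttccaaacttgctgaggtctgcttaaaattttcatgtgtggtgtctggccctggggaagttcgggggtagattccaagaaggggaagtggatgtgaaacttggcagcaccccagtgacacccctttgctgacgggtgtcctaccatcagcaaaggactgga
C1qb (chr5:154407828-154408077, minus strand): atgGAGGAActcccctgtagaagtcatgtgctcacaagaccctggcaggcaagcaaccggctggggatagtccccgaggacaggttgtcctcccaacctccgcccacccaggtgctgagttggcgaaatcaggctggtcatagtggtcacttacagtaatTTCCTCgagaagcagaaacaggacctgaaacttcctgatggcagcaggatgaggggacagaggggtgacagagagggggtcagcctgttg
C3 (chr9:2201340-2201589, minus strand): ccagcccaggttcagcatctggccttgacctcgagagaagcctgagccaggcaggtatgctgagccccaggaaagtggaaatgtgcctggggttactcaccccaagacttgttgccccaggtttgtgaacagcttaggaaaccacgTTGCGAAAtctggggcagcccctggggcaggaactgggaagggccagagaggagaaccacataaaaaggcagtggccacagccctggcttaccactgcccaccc
C4a (chr20:4010107-4010305, plus strand): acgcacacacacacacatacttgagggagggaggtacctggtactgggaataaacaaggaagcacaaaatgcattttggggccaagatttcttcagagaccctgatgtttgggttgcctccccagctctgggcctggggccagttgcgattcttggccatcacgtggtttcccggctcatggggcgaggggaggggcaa
C4b (chr20:4201729-4201978, plus strand): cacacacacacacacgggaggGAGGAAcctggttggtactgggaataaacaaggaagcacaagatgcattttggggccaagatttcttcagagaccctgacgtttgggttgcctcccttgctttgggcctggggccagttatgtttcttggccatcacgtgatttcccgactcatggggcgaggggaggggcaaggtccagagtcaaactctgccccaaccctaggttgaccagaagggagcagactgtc
C1qa held no match to the motifs searched. C1qb held PU.1 matches starting 247 and 90 bases upstream, the second of them on the opposite strand, where 23.3% of 33469 windows of 250 bases held any. Unlike that of C4a, these 33469 windows were not cut at the gene start. C3 held a C/EBP match from 104 to 97 bases upstream, against 9.2% of windows. C4a held no match in its window, and C4b held a PU.1 match starting 229 bases upstream. By the letters shown, the shorter C4a window also covers the like stretch, with other letters at the match. ISRE, present in 3.4% of windows, and NF-kB, present in 5.2%, had no match in these windows. A match describes letters, not a bound site. Over 194 aligned bases the C4a and C4b windows were identical at 175, or 90.2%.

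The C1q chains are the recognition subunits of C1, and a functional C1q molecule needs all of them. Their genes sit side by side on the minus strand of chromosome 5 in the authors' coordinates on mRatBN7.2, C1qb from 149118843 to 149124394, C1qc from 149127424 to 149130732 and C1qa from 149133635 to 149136482, a span of 17.6 kb. C1qa was at 33.4, 16.8 and 26.3 CPM in DMP libraries 30, 31 and 33, and at 10.7, 13.2 and 16.7 CPM in saline libraries 30, 31 and 33. DMP 31 thus lay barely above saline 33, the highest saline library. The mean was 25.5 ± 8.32 CPM in DMP and 13.5 ± 3.01 CPM in saline (SD, n = 3 each), a log2 fold change of 0.92 (SE 0.22, edgeR adjusted p = 0.259).

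C1qb was at 14.1, 9.73 and 12.7 CPM in DMP 30, 31 and 33, against 5.69, 7.42 and 9.23 CPM in saline 30, 31 and 33. C1qc was at 19.4, 13.3 and 15.5 CPM in DMP 30, 31 and 33, against 6.38, 7.31 and 11.9 CPM in saline 30, 31 and 33. Both followed C1qa exactly in the order of the libraries, with DMP 30 highest, then DMP 33 and DMP 31, and saline 30 lowest. The log2 fold change was 0.71 for C1qb (SE 0.183, edgeR adjusted p = 0.347) and 0.92 for C1qc (SE 0.213, edgeR adjusted p = 0.242).

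The chains kept their proportions only roughly. Per length, on the authors' FPKM scale, C1qa was the most abundant chain at 23.0 ± 7.33 FPKM in DMP and 12.2 ± 2.83 FPKM in saline (SD, n = 3 each). The level of C1qa was 2.56, 1.87 and 2.24 times that of C1qb in DMP 30, 31 and 33, and 2.02, 1.91 and 1.94 times in saline 30, 31 and 33, so that these ratios overlapped between groups. The level of C1qc was 1.44, 1.43 and 1.28 times that of C1qb in DMP 30, 31 and 33, and 1.17, 1.03 and 1.34 times in saline 30, 31 and 33, again with overlap.

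C1r and C1s, the proteases that complete C1, were at 16.7, 12.4 and 14.1 CPM (C1r) and 22.8, 13.9 and 12.7 CPM (C1s) in DMP 30, 31 and 33. In saline 30, 31 and 33 they were at 12.2, 11.1 and 15.6 CPM (C1r) and 6.30, 12.2 and 15.3 CPM (C1s). The groups overlapped for both. The log2 fold change was 0.15 for C1r (SE 0.145, edgeR adjusted p = 1) and 0.55 for C1s (SE 0.287, edgeR adjusted p = 1), and that of C1s was 0.24 without DMP 30 and 0.26 without saline 30.

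C2, which supplies the protease of the classical C3 convertase, was at 26.4, 17.8 and 20.0 CPM in DMP 30, 31 and 33, against 12.2, 12.2 and 15.2 CPM in saline 30, 31 and 33. It had the smallest p of the members, with a log2 fold change of 0.70 (SE 0.145, 95% interval 0.38 to 1.02, edgeR adjusted p = 0.148), and its rank by p was 70 among all genes tested. C4a, one of the genes for C4, the other part of that convertase, was at 38.4, 23.8 and 30.9 CPM in DMP 30, 31 and 33, against 14.8, 18.5 and 21.9 CPM in saline 30, 31 and 33. Its log2 fold change was 0.76 (SE 0.17, edgeR adjusted p = 0.207). For C2 as for C4a, every DMP library lay above every saline library, and DMP 31 was the lowest of the DMP libraries.

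C4b, the second C4 gene, had far lower levels, at 4.95, 1.01 and 1.70 CPM in DMP 30, 31 and 33 and 0.906, 1.14 and 2.29 CPM in saline 30, 31 and 33. DMP 30 alone exceeded the saline range. Its log2 fold change of 0.83 (SE 0.521, edgeR adjusted p = 1) was -0.09 without DMP 30. C4a and C4b are near-identical, so the division of reads between them is uncertain. Their summed level was 43.4, 24.8 and 32.6 CPM in DMP 30, 31 and 33, against 15.7, 19.6 and 24.1 CPM in saline 30, 31 and 33, and on this sum the groups did not overlap, with DMP 31 close to saline 33.

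C3, the central component whose cleavage all pathways share, had the highest counts of the members. It was at 164.8, 79.3 and 105.1 CPM in DMP 30, 31 and 33, against 56.0, 72.5 and 69.5 CPM in saline 30, 31 and 33. The mean was 116.4 ± 43.9 CPM in DMP and 66.0 ± 8.78 CPM in saline (SD, n = 3 each), so that the spread within DMP was much the wider. The log2 fold change of 0.82 (SE 0.207, edgeR adjusted p = 0.338) was 0.48 without DMP 30, where the edgeR adjusted p was 0.389.

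Factor B, which forms the C3 convertase of the alternative pathway, did not share this pattern. Cfb was at 21.9, 13.1 and 15.5 CPM in DMP 30, 31 and 33, against 14.7, 11.5 and 25.9 CPM in saline 30, 31 and 33. The highest library was saline 33 and the lowest saline 31, so the saline libraries spanned the DMP ones. The log2 fold change was -0.05 (SE 0.263, 95% interval -0.63 to 0.54, edgeR adjusted p = 1). Its sign depended on single libraries, with 0.36 without saline 33 and -0.28 without DMP 30. The interval does not show that the groups were alike, since it reaches fold changes of 0.648 and 1.45.

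C2 and Cfb are neighbours on the plus strand of chromosome 20 within the major histocompatibility complex. C2 runs from 3951474 to 3970376 and Cfb from 3970643 to 3976510, with 266 bases between them, and C4a follows from 4005731 to 4020083 (mRatBN7.2). The stretch from C2 to C4a spans 68.6 kb and holds 4 more genes, Nelfe, Skiv2l, Dxo and Stk19. Their log2 fold changes were 0.01 for Nelfe, -0.09 for Skiv2l, -0.04 for Dxo and -0.37 for Stk19. Of the 4, 1 had an unadjusted p under 0.05 in edgeR, against 4.64% of all genes. It was Stk19, at 4.04 ± 0.296 CPM in DMP and 5.22 ± 0.127 CPM in saline (SD, n = 3 each, edgeR adjusted p = 0.832). The larger fold changes of C2 and C4a were thus not shared by the genes lying between them, though the difference between genes was not tested.

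**Figure D2:**
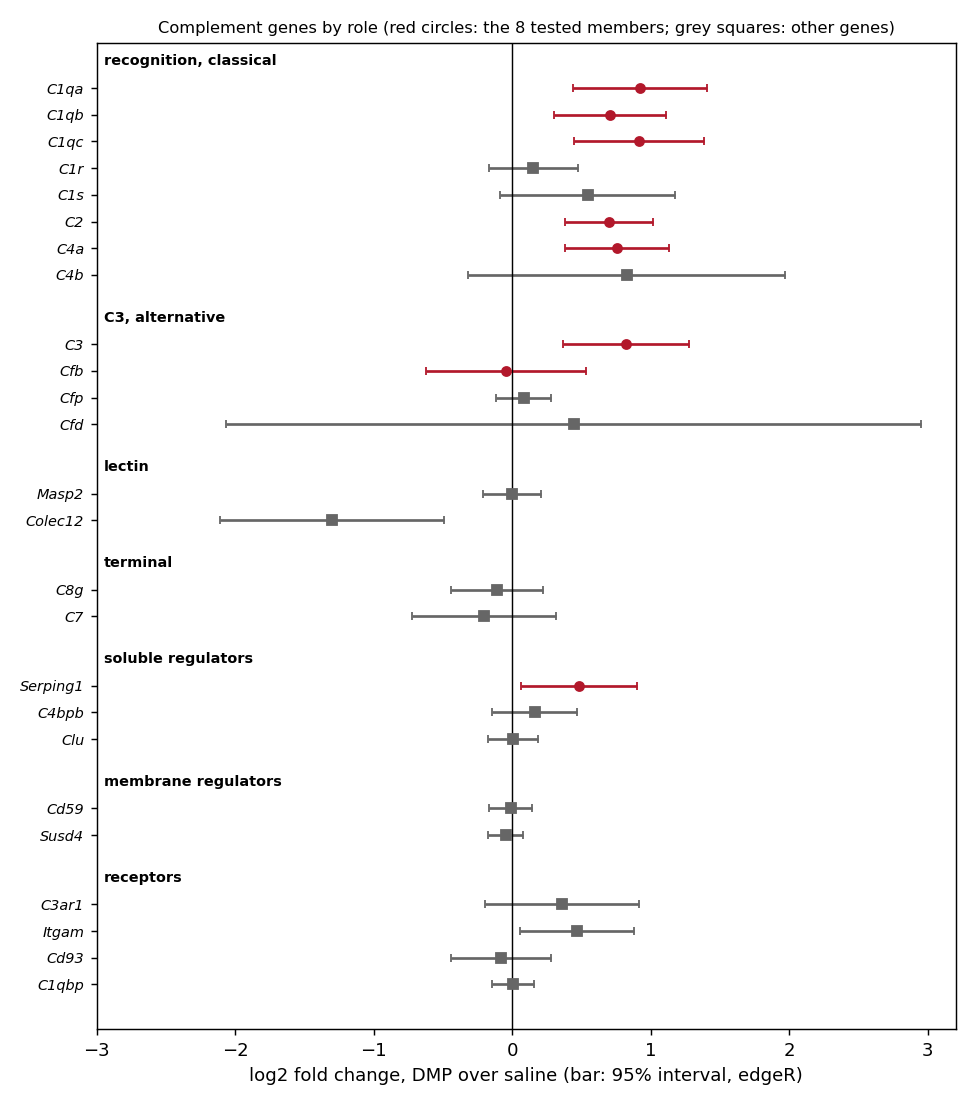
Log2 fold change of DMP over saline with its 95% interval (horizontal axis) for the 8 members tested (red circles) and 17 other complement genes (grey squares), grouped by role from top to bottom. Intervals of C1qa, C1qb, C1qc, C2, C4a, C3 and Serping1 lie above 0, that of Cfb spans 0, and those of the terminal and membrane genes sit around 0.

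C1 inhibitor, the serpin encoded by Serping1 on chromosome 3 (69842726 to 69852583, minus strand), inactivates C1r and C1s. It was at 32.3, 25.4 and 29.1 CPM in DMP 30, 31 and 33, against 13.5, 23.0 and 25.7 CPM in saline 30, 31 and 33. The groups overlapped by a narrow margin, since DMP 31 lay just below saline 33, and saline 30 stood well under the rest. The log2 fold change was 0.48 (SE 0.19, edgeR adjusted p = 0.902), and 0.25 without saline 30.

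Factor I, which cleaves C3b and C4b with the help of cofactors, was barely detected. Cfi had counts of 0, 7 and 0 in DMP 30, 31 and 33, and of 11, 18 and 4 in saline 30, 31 and 33. It did not pass the filter on low counts and was the member left out of the test. With no filter, its log2 fold change was -2.07 (SE 1.43, edgeR adjusted p = 0.966). It overlaps LOC120100942 on the opposite strand of chromosome 2, and without knowing whether counting used strand, reads of the pair cannot be told apart.

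The members differed widely in level. Per length, mean FPKM over all 6 libraries ran from C1qa at 17.6 and C3 at 16.2 through C1qc at 10.8, Serping1 at 9.45 and C1qb at 8.22 to C2 at 6.00, C4a at 4.17, Cfb at 3.61 and Cfi at 0.132. In the DMP libraries C3 stood at 20.7 ± 7.58 FPKM and Cfb at 3.54 ± 0.919 FPKM, and in the saline libraries C3 stood at 11.8 ± 1.61 FPKM and Cfb at 3.68 ± 1.63 FPKM (SD, n = 3 each). In both groups the means of C1qa and C3 differed by less than the SD of either gene. The FPKM ratio of C3 to Cfb was 6.37, 5.13 and 5.73 in DMP 30, 31 and 33, against 3.21, 5.34 and 2.27 in saline 30, 31 and 33, with overlap through saline 31.

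The rest of the system showed less of this, and not in every role. Of 44 other complement genes in the count table, 34 could be tested and 0 passed in edgeR. At an unadjusted p under 0.05 in edgeR there were 6 of the 34, against 4.64% of all genes in either direction. Of the 34, 4 were higher, against 2.08% of all genes, and 2 were lower, against 2.56%. Both shares exceeded those over all genes. The median log2 fold change of the 34 was 0.03, with 20 above 0 (58.8%, against 50% of all genes) and 14 below. In the lectin pathway 5 of 9 genes could be tested and both with an unadjusted p under 0.05 were lower. They were Masp1, a protease of that pathway, at 0.310 ± 0.0594 CPM in DMP and 0.815 ± 0.541 CPM in saline with overlap, and Colec12, a scavenger receptor with a collectin domain, at 0.962 ± 0.291 CPM in DMP and 2.38 ± 1.14 CPM in saline without overlap (SD, n = 3 each). Masp2, the main protease of the lectin pathway, was at 18.5 ± 1.34 CPM in DMP and 18.6 ± 1.75 CPM in saline.

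Of 7 terminal components, which form the membrane attack complex, 5 (C5, C6, C8a, C8b and C9) were too low to test. C7 was at 3.75 ± 0.604 CPM in DMP and 4.31 ± 1.35 CPM in saline, and C8g at 6.79 ± 0.671 CPM in DMP and 7.34 ± 1.19 CPM in saline (SD, n = 3 each). All 8 membrane regulators were tested and 0 had an unadjusted p under 0.05 in edgeR, against 4.64% of all genes. The 2 with the highest FPKM were Cd59, which blocks assembly of the attack complex, at 91.2 ± 9.11 CPM in DMP and 91.9 ± 4.73 CPM in saline, and Susd4, a membrane protein with complement control domains, at 52.1 ± 1.29 CPM in DMP and 53.8 ± 2.42 CPM in saline. Properdin (Cfp), which stabilises the alternative convertase, was at 16.5 ± 1.37 CPM in DMP and 15.6 ± 0.549 CPM in saline, and Cfd, the protease that activates factor B, stayed below 0.5 CPM in every library.

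Clusterin (Clu), a chaperone that also restrains the attack complex and the most abundant complement gene by FPKM, was at 430.4 ± 20.2 CPM in DMP and 429.1 ± 54.5 CPM in saline (SD, n = 3 each). Among the receptors, 3 of 9 tested had an unadjusted p under 0.05 in edgeR and all 3 were higher, against 2.08% of all genes. They were Itgam, Itgax and Itgb2, the subunits of the integrin receptors for cleaved C3. Itgam was at 9.03, 6.08 and 7.05 CPM in DMP 30, 31 and 33, against 4.17, 5.61 and 6.25 CPM in saline 30, 31 and 33, with overlap (edgeR adjusted p = 0.91). The C3a receptor C3ar1 was at 2.40 ± 0.495 CPM in DMP and 1.87 ± 0.536 CPM in saline (SD, n = 3 each).

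Across libraries most of the members followed a common order. Of the 8 tested, 7 were highest in DMP 30, Cfb being the exception, and 6 were lowest in saline 30. The mean of the members relative to the saline mean was 1.00, 0.32 and 0.65 on the log2 scale in DMP 30, 31 and 33, and -0.30, -0.05 and 0.35 in saline 30, 31 and 33, so that DMP 31 lay just below saline 33. DMP 30 also stood apart in a principal component analysis of all genes tested, with a score of -53.0 on the first component, which held 28.1% of the variance, against scores of -7.01 to 23.4 in the other libraries. Without DMP 30 the median log2 fold change of the members was 0.55, and 6 members kept an unadjusted p under 0.05 in edgeR, all of the 7 but Serping1.

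**Figure D3:**
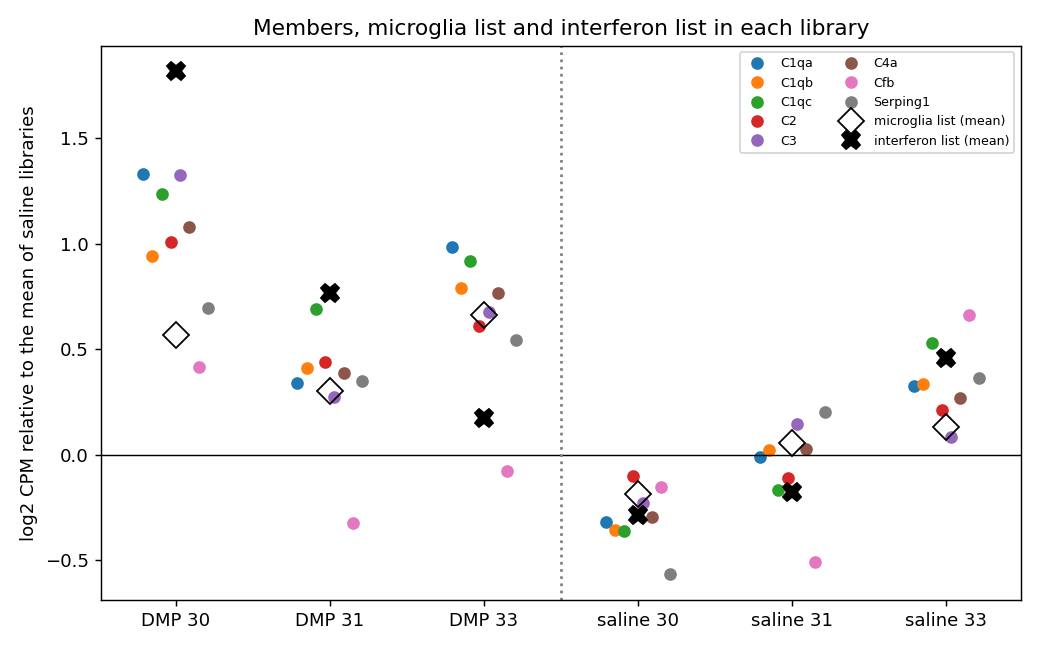
Log2 CPM minus the saline mean (vertical axis) for the 8 members tested (coloured points), with the means of the microglia list (open diamonds) and the interferon list (crosses), in each DMP library (left) and saline library (right). The interferon list and the C1q chains were highest in DMP 30 and lowest in saline 30. The interferon list was at 1.82, 0.77 and 0.18 in DMP 30, 31 and 33, and the C1q chains were higher in DMP 33 than in DMP 31.

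By pattern over the 6 libraries, the gene closest to the mean profile of the C1q chains was another member. Among 15299 genes with a mean of at least 1 CPM, C4a had the smallest root mean square difference from that profile, 0.084 on the log2 scale, followed by LOC103692460 at 0.109 and B2m, the light chain of class I molecules, at 0.144. C2 ranked 10, C3 ranked 24, Serping1 ranked 49 and Cfb ranked 2710. Taken singly, among 15301 genes, the chains were not always closest to each other. From C1qa, C1qb ranked 3 and C1qc 8. From C1qb, C1qa ranked 27 and C1qc 36. From C1qc, C1qb ranked 1 and C1qa 4. The closest genes to C2 were Slfn13, RT1-A2 and Selplg at 0.033 to 0.068, and those to C3 were Psmb8, an immunoproteasome subunit, Il16 and Pld4 at 0.075 to 0.136. Closest to Serping1 were LOC103694552, Plek2 and Fgd2 at 0.093 to 0.103, and closest to Cfb were LOC120100907, Lrat and LOC102555913 at 0.099 to 0.124. With 6 libraries such likeness is a description and gets no test.

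Genes of microglia and of an interferon response were set beside the members, on lists chosen with earlier results of these data known. Of 10 microglia genes tested, none of them a complement gene, all 10 had log2 fold changes above 0, as did 50% of all genes. Their median was 0.42. At an unadjusted p under 0.05 in edgeR, 4 were higher (Aif1, Csf1r, Cd68 and Ptprc), against 2.08% of all genes, with 0 past the adjusted threshold. Their summed level was 135.9, 111.9 and 138.4 CPM in DMP 30, 31 and 33, against 93.6, 101.9 and 110.4 CPM in saline 30, 31 and 33. The homeostatic markers P2ry12, at 5.73 ± 1.15 CPM in DMP and 4.67 ± 0.0836 CPM in saline, and Tmem119, at 3.57 ± 0.814 CPM in DMP and 2.83 ± 0.362 CPM in saline (SD, n = 3 each), overlapped between groups. The summed C1q level per unit of summed microglia level was 0.492, 0.356 and 0.394 in DMP 30, 31 and 33, against 0.243, 0.274 and 0.342 in saline 30, 31 and 33, with every DMP library above every saline one. The part of microglia in the members' values was not tested.

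Of 22 interferon-stimulated genes tested, all 22 had log2 fold changes above 0, as did 50% of all genes. Their median was 0.99. At an unadjusted p under 0.05 in edgeR, 15 were higher, against 2.08% of all genes, with 0 past the adjusted threshold. Their mean relative to saline was 1.82, 0.77 and 0.18 on the log2 scale in DMP 30, 31 and 33, and -0.29, -0.17 and 0.46 in saline 30, 31 and 33. The mean of the interferon list, like that of the members, was highest in DMP 30 and lowest in saline 30. On both means saline 33 was the highest saline library. DMP 33, the lowest DMP library on the interferon list, was above DMP 31 for each of the 8 members tested. Of 11 genes responsive to IL-6, IL-1 or NF-kB, 0 had an unadjusted p under 0.05 in edgeR, against 4.64% of all genes. Their median was 0.04. The part of interferon in the members' values was not tested.

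Marker genes of other tissues and of blood cells were examined in the same way. Markers of border macrophages summed to 2.14, 5.24 and 5.24 CPM in DMP 30, 31 and 33, against 5.18, 7.68 and 6.12 CPM in saline 30, 31 and 33, with overlap. Of the 5 tested, 4 had log2 fold changes below 0 and 1, Siglec1, above 0. Fibroblast genes summed to 19.5, 29.7 and 49.0 CPM in DMP 30, 31 and 33, against 78.4, 73.4 and 81.9 CPM in saline 30, 31 and 33, and all 7 had log2 fold changes below 0. Genes of pigment cells and of the lens were likewise below 0 in all 5 and all 4 tested. Red blood cell genes summed to 111.5, 71.8 and 65.1 CPM in DMP 30, 31 and 33, against 112.4, 121.7 and 68.0 CPM in saline 30, 31 and 33. All 5 of them were below 0. Over all genes, 50% had a log2 fold change above 0. Genes of blood monocytes and neutrophils summed to 9.05, 4.25 and 4.73 CPM in DMP 30, 31 and 33, against 2.03, 2.65 and 2.90 CPM in saline 30, 31 and 33, with Plac8 at 2.67 to 6.36 CPM in DMP and 0.984 to 1.75 CPM in saline. The neutrophil receptor gene Csf3r was at 2.10, 1.24 and 1.49 CPM in DMP 30, 31 and 33, against 0.925, 0.857 and 0.942 CPM in saline 30, 31 and 33, without overlap (edgeR log2 fold change 0.83, adjusted p = 0.691), and S100a8, S100a9 and Elane had 0 counts in every library. Of 7 genes of the liver, which makes plasma complement, Alb and Ahsg had 0 counts in every library, while Fgb was at 25.7, 6.27 and 6.04 CPM in DMP 30, 31 and 33, against 22.2, 5.42 and 5.75 CPM in saline 30, 31 and 33, and Apoa1 was at 0.401 to 0.586 CPM in DMP and 0.551 to 0.615 CPM in saline. The retinal identity of the samples was plain from photoreceptor genes, which summed to 55050 to 57960 CPM in DMP and 55410 to 58900 CPM in saline. Rn18s, the 18S ribosomal RNA, made up 0.0439% to 0.159% of a DMP library and 0.0121% to 0.0338% of a saline library. The part of these in the members' values was not tested.

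**Figure D4:**
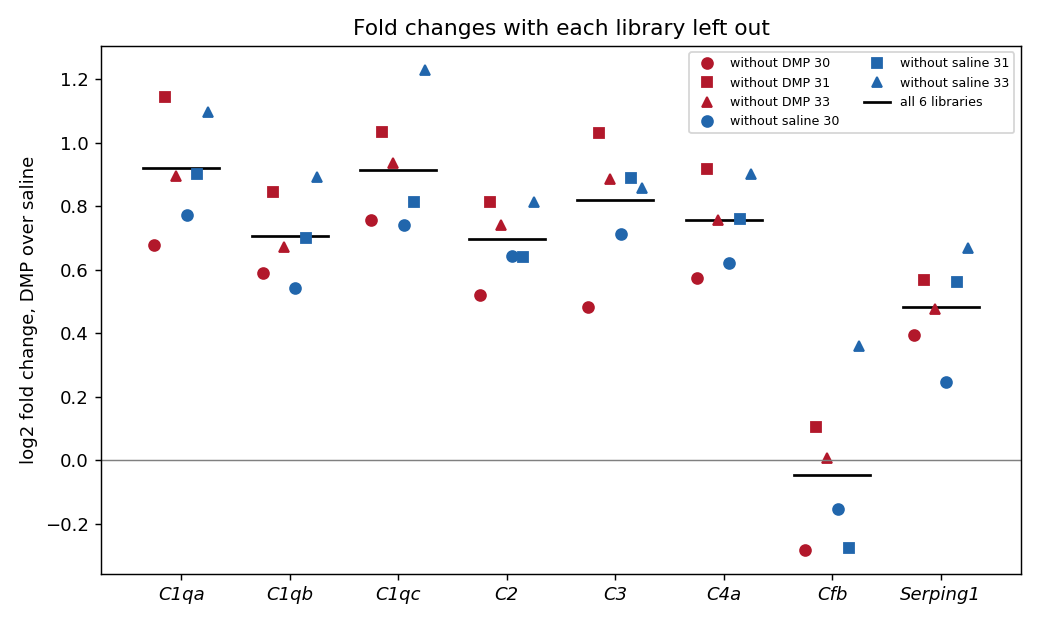
Log2 fold change of DMP over saline (vertical axis) for each of the 8 members tested with all 6 libraries (black line) and with each DMP library (red) or saline library (blue) left out, circles, squares and triangles marking libraries 30, 31 and 33. C1qa, C1qb, C1qc, C2, C3, C4a and Serping1 stay above 0 in each case, lowest without DMP 30 or saline 30, while Cfb falls on both sides of 0.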

How the data were processed

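Polyadenylated retinal RNA was sequenced in 6 libraries that mark strand (dUTP) and were amplified by PCR, with no molecular identifiers mentioned, per the labels' protocols. Reads were trimmed with cutadapt 1.9 and assessed with FastQC, per the submitters' processing notes, which give the build as mRatBN7.2 and name no counting tool. The deposited counts were whole numbers treated as estimated counts, since 673 to 741 genes per library had a value of 4, against 301 to 325 with 3, which makes low values less certain. The authors' deposited FPKM values gave levels between genes.

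Genes passing the edgeR filter (minimum count 10, total 15) numbered 18571. CPM used TMM-scaled library sizes. DMP was compared with saline in edgeR 4.0.16 (R 4.3.3) by the two-sided quasi-likelihood test, group as the only term, Benjamini-Hochberg adjusted over all genes tested, threshold 0.05. Standard errors were the absolute log2 fold change over the square root of F. On simulated counts of 18275 genes, 65.7% of 1.5-fold, 89.6% of 2-fold and 98.5% of 3-fold changes were recovered, with 7 false calls. The simulation gave every gene the trended dispersion for its level and changed random genes of at least 1 CPM. It thus does not give the recovery for genes that vary more than the trend, and says nothing on the members. Of 175 listed symbols 173 matched.

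Members and lists were chosen with earlier results of these data known. The rule named the 9 members, the 2 other genes of highest mean FPKM in each role, and C4b, C1r, C1s, C3ar1 and Itgam, with 1 further gene not reported here. Masp1, Itgax, Itgb2, Nelfe, Skiv2l, Dxo, Stk19 and the marker genes were named after their values were seen. Alternatives were RLE scaling, DESeq2 1.42.0, limma-voom (limma 3.58.1), other filters, each library left out, the number as a block, and limma on log2(FPKM + 0.1) and log2(FPKM + 1).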

Additional observations from a re-analysis of the deposited data

How the results depend on the processing

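The number of genes past the adjusted threshold was 4 in edgeR with all libraries. It was 90 with DESeq2, 13 with the stricter filter (at least 1 CPM in at least 3 libraries), 1 with limma on log2(FPKM + 0.1) and 0 with limma on log2(FPKM + 1), where 984 genes had an unadjusted p under 0.05. Leaving out 1 library at a time it ran from 0 (without DMP 31, 834 at an unadjusted p under 0.05) to 81 (without DMP 33). The number of members past that threshold was 4 with DESeq2 and 0 in the other 13 alternatives. Of the members, 6 to 8 had an unadjusted p under 0.05 in every alternative, against 3.3% to 8.21% of all genes. The 8 arose only without DMP 31, where Cfi was tested too. Cfi was lower in DMP there, with counts of 0 in DMP 30 and DMP 33. The median log2 fold change of the 8 members tested with all libraries ran from 0.55 to 0.88 with 1 library left out. The direction held in all 14 alternatives for 7 of the 8 members tested. That of Cfb turned, at 0.018 with limma-voom, 0.003 with the replicate block and -0.28 to 0.36 with 1 library left out. Leaving out 1 library also turned the sign of genes near 0, Masp2 (-0.077 to 0.06), Clu (-0.084 to 0.099), Cd59 (-0.097 to 0.035), C1qbp (-0.019 to 0.022) and Cd93 (-0.225 to 0.068), and of the scarce Cfd (-0.32 to 1.66) and C4b (-0.089 to 1.32). With the number as a replicate block 45 genes and 0 members passed in edgeR, and 7 members had an unadjusted p under 0.05. Deviations of same-numbered libraries from their group means correlated at 0.066, 0.035 and 0.028 for numbers 30, 31 and 33, each under 0.1. Such correlations over all genes do not exclude pairing. Hba-a1, a red blood cell gene, fell from number 30 to 33 in both groups. It was at 34.87, 19.41 and 11.64 CPM in DMP 30, 31 and 33, against 44.25, 31.6 and 15.39 CPM in saline 30, 31 and 33. Alas2, of the same list, did not fall in this way. The main fit did not treat same-numbered libraries as pairs. DMP 30 and DMP 33 correlated most with the saline library of their own number and DMP 31 with saline 33 (0.046). What the number marks is not given. Genes with few counts, such as Cfi, could not be resolved at this depth.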
